A study of Mus musculus with 12 samples.

Results

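The SLC25 family is the largest group of transporters in the mitochondrial inner membrane. Most of its members exchange a metabolite on one side of that membrane for another on the other side, so the family links the matrix with the rest of the cell for ADP and ATP, phosphate, amino acids, dicarboxylates, acylcarnitines and cofactors. In liver, family members carry the intermediates of the urea cycle, of fatty acid oxidation and of glutamate breakdown. The members described here were the gene rows of 12 RNA-seq count files whose symbol was Slc25a followed by a number, which gave 47 of the 24062 gene rows. The uncoupling proteins Ucp1, Ucp2 and Ucp3 and the outer membrane proteins Mtch1 and Mtch2 belong to the same family under other names and were not members.

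The libraries came from 2 tumor models, each on 2 diets, with 3 mice in each group. MYC-ON livers were livers of FVB males with the transgenes LAP-tTA and TRE-MYC, in which the liver promoter LAP drives the tetracycline transactivator and the removal of doxycycline at birth switches on a MYC transgene. The growth protocol gives an age of 45 days for MYC-ON males compared with wild type, and the labels give no separate age for the mice on the diets. The xenografts were subcutaneous tumors of HCC53N, a single mouse liver cancer line that the labels describe as MYC ON, knocked out for p53 and overexpressing mutant NRAS, grown in immunodeficient mice labelled NOD-SKID, whose sex the labels do not give (the methods name females, with a repeat in males). The paper gives p53 loss and mutant N-Ras as the drivers of the tumors behind HCC53N and names no MYC transgene for it. It reports more MYC in this line than in wild-type liver. In both models the mice ate a complete control diet or the same kind of diet without tryptophan (No-Trp diet) for 21 days. Every mouse therefore carried a tumor model, and no tumor-free liver was used here.

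Each library held between 14660963 and 26085349 reads assigned to genes. The SLC25 members together took 0.428% to 0.510% of those reads in control livers and 0.674% to 0.702% in No-Trp livers, against 0.295% to 0.376% in the 6 xenografts. The share of reads not assigned to a gene ran from 24.7% to 39.4%, the RNA precursor Rn45s took 12.1% of the reads of control liver 101, and No-Trp liver 107 had the smallest composition factor (0.687). Levels below are normalized CPM, the counts of a gene scaled to a common library total after edgeR's composition factor, and levels compared between genes are divided by the kilobases of merged exons (CPM per kilobase). A member was called when the Benjamini-Hochberg adjusted p of edgeR's quasi-likelihood test over all genes was at most 0.05 and the log2 fold change was at least 1 in either direction. The tissue labels were checked against 8 hepatocyte markers, whose summed level was 8281 to 38564 in control livers, 48315 to 123270 in No-Trp livers and 435 to 1128 in xenografts.

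Of the 47 members, 43 had enough reads to be tested in livers and 41 in xenografts. Slc25a18 and Slc25a34 were tested only where livers entered the fit. Slc25a2, Slc25a31, Slc25a41 and Slc25a54 never passed the filter on low counts and had at most 21 reads in any library. Per length of transcript, 24 members in livers and 15 in xenografts reached a median of 10 normalized CPM per kilobase, and 40 and 38 members reached 1.

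The family was dominated by few members. In livers the highest median per length was that of Slc25a5, an ADP/ATP exchanger, at 685 normalized CPM per kilobase (range 595 to 816 over 6 livers). It was followed by Slc25a39, a carrier needed for mitochondrial glutathione uptake, at 445 (range 275 to 837). Slc25a3, which brings phosphate and copper into the matrix, stood at 399 (range 367 to 423). Slc25a47, a carrier found mainly in liver whose substrate is not settled, stood at 348 (range 78.3 to 1304), and Slc25a4, another ADP/ATP exchanger, at 246 (range 45.5 to 374). The ranges of all neighbours in this order overlapped. The first 3 made up 48.2% of the summed level per length of the family.

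In xenografts the same quantity was led by Slc25a3 at a median of 311 (range 263 to 346 over 6 tumors), Slc25a5 at 293 (range 211 to 346) and Slc25a4 at 279 (range 251 to 394), which together made up 58.6% of the family. Slc25a39 followed at 111 (range 95.6 to 173) and Slc25a1, the citrate carrier that supplies cytosolic lipid synthesis, at 79.1 (range 63.5 to 107). The first 3 overlapped in range with each other, and Slc25a3, Slc25a5 and Slc25a4 did not overlap with Slc25a39. Slc25a47 was at rank 4 in livers and at rank 27 in xenografts, where its median was 5.19. Slc25a24 was at rank 38 in livers and at rank 7 in xenografts.

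**Figure D1:**
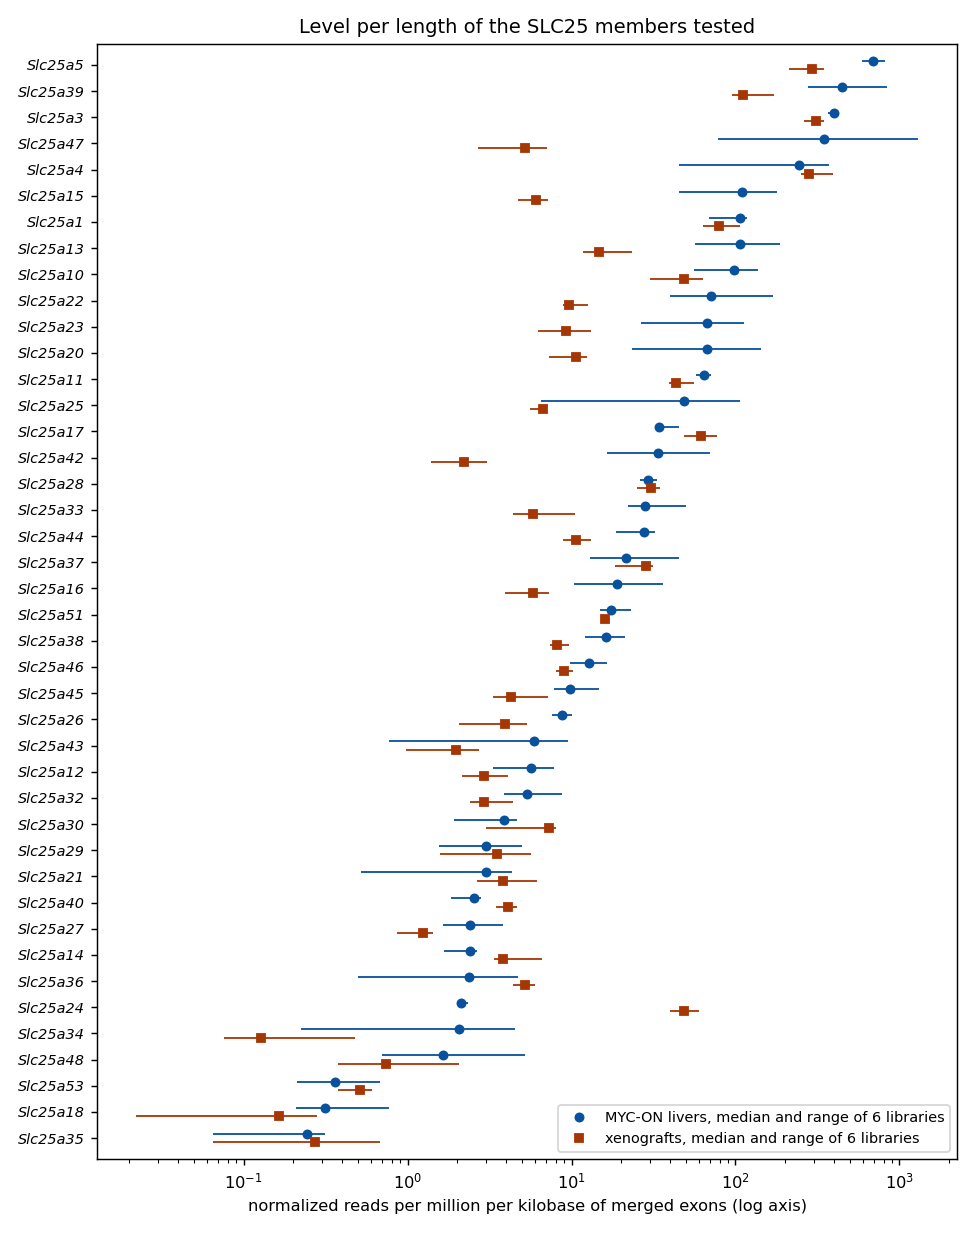
Level per length of the SLC25 members that were tested, 1 of them not drawn, as normalized CPM per kilobase of merged exons on a log axis. Blue circles are medians of 6 MYC-ON livers and brown squares medians of 6 xenografts, with lines for the lowest and highest library. Slc25a5 led in livers at 685 and Slc25a3 in xenografts at 311, while Slc25a47 and Slc25a24 lay far apart between the models.

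The first question was which carriers differed between No-Trp and control diet in MYC-ON livers. Of the 43 members tested, 12 rose and 1 fell, which was 30.2% of them, against 16.5% of all 14122 genes tested (9.28% higher and 7.27% lower). The members that rose handle acylcarnitine (Slc25a20), ornithine (Slc25a15), glutamate and aspartate (Slc25a22, Slc25a13), dicarboxylates (Slc25a10, Slc25a21), coenzyme A (Slc25a42, Slc25a16), glutathione (Slc25a39) and ATP-Mg (Slc25a25), or have no settled substrate (Slc25a47, Slc25a34). The member that fell was Slc25a37, mitoferrin-1, which imports iron for heme synthesis. The median log2 fold change of the 43 members was 0.44, against 0.00 over all genes, with 31 members above 0 and 12 below.

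The groups of 3 livers did not overlap for 25 members, higher on the No-Trp diet in 20 and lower in 5, and 48.7% of all genes had groups that did not overlap (23.3% higher and 25.4% lower). The summed level of the 47 members was 4730.4, 5326 and 4730.5 in the control livers and 7730.4, 9978 and 8037 in the No-Trp livers. With library totals in place of composition factors, the median of all genes was at -0.30 and that of the members at 0.13, and 5 members were then called higher and 1 lower. Under that scaling 32.3% of the calls over all genes were higher, against 56.1% with composition factors.

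The calls depended on which livers were included, as the plot with each liver left out shows. Leaving out control liver 103 left 0 members called (0.0562% of all genes), and leaving out control liver 101 left 1 (2.06%), Slc25a15. Without No-Trp liver 105 the count was 4 (2.55%), without No-Trp liver 107 it was 8 (8.85%) and without No-Trp liver 108 it was 10 (14.8%). Without control liver 102 it was 13 (22.3%). In each of these 6 fits all 13 called members kept their direction. Because the 2 groups of livers did not overlap for these members, that direction was all but fixed and is no further support. With all livers 20 of the 43 members tested had an unadjusted p under 0.05, as did 41.8% of all genes. The files of control liver 101 and No-Trp liver 108 carried a mark of resubmission in their names, as did those of control xenografts 41 and 43 and of no No-Trp xenograft. With only the other 4 livers, 0 members and 0 of all genes were called by edgeR. The difference between the 2 marked livers had the direction of the fit for all 13 called members, which follows from groups that do not overlap.

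**Figure D2:**
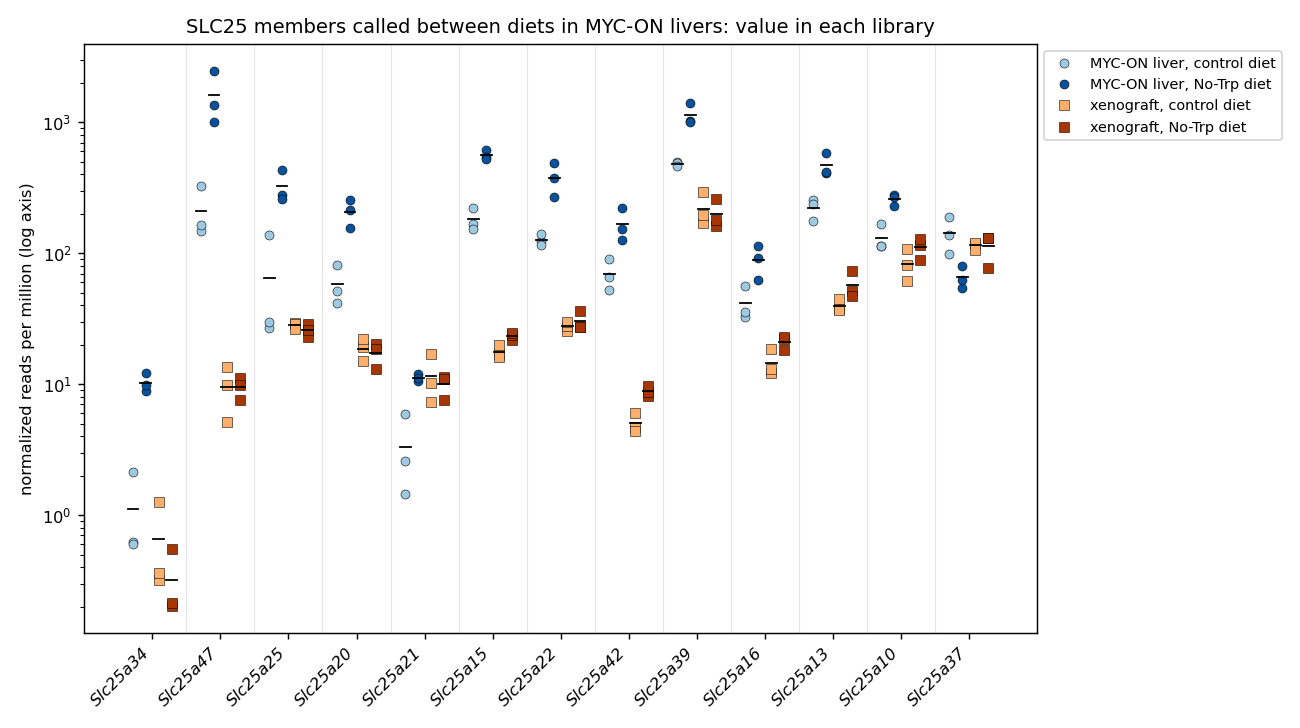
Normalized CPM in each of the 12 libraries, on a log axis, for the 13 SLC25 members called between diets in MYC-ON livers. Circles are livers, squares are xenografts, light and dark are control and No-Trp diet, and short lines are group means. The 3 dark circles lie above the 3 light circles for 12 members and below them for Slc25a37, whereas light and dark squares overlap for most members.

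Among the carriers without a settled substrate, Slc25a47 lies at chr12:108836046-108856815 on the plus strand of mm10 and had the second largest rise. Its level was 149, 324 and 163 normalized CPM in control livers 101, 102 and 103, and 998, 2477 and 1359 in No-Trp livers 105, 107 and 108. The lowest No-Trp liver was above the highest control liver, control liver 102 was the highest control and No-Trp liver 107 the highest of all. Its log2 fold change between diets was 2.95 ± 0.47 (SE, n = 3 and 3, edgeR adjusted p = 0.0171), a 7.75-fold higher level.

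Slc25a34 (chr4:141618824-141623821, minus strand) had the largest fitted rise from a low level. It was at 0.624, 2.14 and 0.601 in control livers and at 8.91, 9.80 and 12.1 in No-Trp livers, from 13 to 38 reads and from 156 to 160 reads. The fitted difference on the log2 scale was 3.24 ± 0.53 (SE, n = 3 and 3, edgeR adjusted p = 0.0173). Control liver 102 again was the highest control.

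Slc25a25 (chr2:32414487-32451445, minus strand) is a calcium-regulated exchanger of ATP-Mg and phosphate. Its level was 26.8, 138 and 29.6 in control livers and 279.6, 436 and 260.3 in No-Trp livers. Control liver 102 stood between the other controls and the No-Trp livers, without overlap. The log2 fold change was 2.35 ± 0.67 (SE, edgeR adjusted p = 0.0445), it was 3.53 without control liver 102, and it lost its call when any other liver was left out. Of the other members of the ATP-Mg group, Slc25a23 had a log2 fold change of 0.97 (adjusted p = 0.12) and Slc25a24 of -0.05 (adjusted p = 0.888). Exons of Slc25a25 overlap Naif1 on the opposite strand, and whether the counting used strand is not given.

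Slc25a20 (chr9:108662088-108684641, plus strand) is the carnitine/acylcarnitine carrier that brings fatty acids into the matrix for oxidation. It stood at 41.6, 81.6 and 51.2 in control livers and at 156, 253 and 215 in No-Trp livers, with no overlap. Slc25a20 had a log2 fold change of 1.87 ± 0.30 (SE, edgeR adjusted p = 0.0171). Of the 7 carnitine shuttle genes tested, 4 rose, 1 fell and the median log2 fold change was 1.43. The carnitine importer Slc22a5 rose by 2.38, the transferase Cpt1a by 1.86, Crat by 1.45 and Crot by 1.43 on the log2 scale, and Cpt1c fell by 3.03. Cpt2 had a log2 fold change of 0.92 (adjusted p = 0.0294), under the fold threshold.

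Slc25a15 (chr8:22375551-22398597, minus strand) exchanges ornithine for citrulline in the urea cycle. Its level was 167, 222 and 154 in control livers and 615, 542 and 525 in No-Trp livers, and each No-Trp liver was above each control liver. The log2 fold change was 1.65 ± 0.21 (SE, edgeR adjusted p = 0.0136). Its call was lost only without control liver 103 among the fits that left out a liver. Slc25a29, another carrier of basic amino acids, had a log2 fold change of 0.64 (adjusted p = 0.288). Of the 5 urea cycle genes tested, 3 rose and none fell, with a median log2 fold change of 1.09. Arg1 rose by 2.90, Cps1 by 1.70 and Nags by 1.09, and Asl had 0.95 (adjusted p = 0.0296).

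In the group of aspartate, glutamate and malate carriers 2 of 5 members rose. Slc25a22 (chr7:141429744-141437892, minus strand), which moves glutamate with a proton, was at 123, 141 and 115 in control livers and at 490.3, 374 and 269.5 in No-Trp livers. It had a log2 fold change of 1.60 ± 0.25 (SE, edgeR adjusted p = 0.0163). Slc25a13 (chr6:6041218-6217173, minus strand), the liver form of the aspartate/glutamate carrier known as citrin, was at 176, 255 and 238 in control livers and at 409.7, 581 and 416 in No-Trp livers. Its log2 fold change was 1.09 ± 0.24 (SE, edgeR adjusted p = 0.0242). The levels of the 3 control and 3 No-Trp livers did not overlap for either gene.

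The other members of that group were Slc25a12, the second aspartate/glutamate carrier, with a log2 fold change of -0.19 (adjusted p = 0.681), Slc25a11, the 2-oxoglutarate/malate carrier, with 0.19 (adjusted p = 0.315), and Slc25a18 with 1.14 (adjusted p = 0.107). Of the 6 enzymes of glutamine and glutamate metabolism, 4 rose and 1 fell. The alanine transaminases Gpt and Gpt2 rose by 2.59 and 1.49 on the log2 scale, glutamate dehydrogenase Glud1 by 1.49 and the liver glutaminase Gls2 by 1.03. Of 4 enzymes of the malate-aspartate shuttle, 1 rose, the aspartate transaminase Got1, to a 3.73-fold level.

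Of the dicarboxylate and citrate carriers 2 of 3 rose. Slc25a10 (chr11:120491840-120499187, plus strand), which exchanges malate and succinate for phosphate, was at 114, 166 and 113 in control livers and at 229, 278 and 270.4 in No-Trp livers. Its log2 fold change of 1.01 ± 0.20 (SE, edgeR adjusted p = 0.0221) was just past the fold threshold, and it was 0.71 with library totals. Slc25a21 (chr12:56712634-57197472, minus strand) carries 2-oxoadipate, an intermediate of lysine and tryptophan breakdown. It was at 1.44, 5.97 and 2.60 in control livers and at 10.6, 12 and 11.1 in No-Trp livers. Its rise on the log2 scale was 1.78 ± 0.49 (SE, edgeR adjusted p = 0.038), and the gene overlaps Pax9 on the opposite strand. Slc25a21 lost its call in 5 of the 6 fits that left out a liver. Slc25a1, the citrate carrier, was at 116, 179 and 114 and at 195, 178 and 193, with a log2 fold change of 0.49 (adjusted p = 0.118). Of 5 genes of citrate export and use 1 rose, malic enzyme Me1, by 2.44.

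Slc25a42 (chr8:70184340-70212305, minus strand), which imports coenzyme A in exchange for adenine nucleotides, was at 52.4, 89.7 and 65.6 in control livers and at 153, 223 and 126 in No-Trp livers. Slc25a42 had a log2 fold change of 1.30 ± 0.28 (SE, edgeR adjusted p = 0.0243). Slc25a16 (chr10:62920633-62946498, plus strand), a member linked to coenzyme A levels, was at 32.6, 56.7 and 35.7 and at 92.3, 114 and 62.7, with a log2 fold change of 1.13 ± 0.29 (SE, edgeR adjusted p = 0.0331). No-Trp liver 108 was the lowest of its group for both genes and still above the highest control liver. Slc25a17, a peroxisomal carrier of coenzyme A and related nucleotides, had a log2 fold change of 0.06 (adjusted p = 0.809).

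Slc25a39 (chr11:102402985-102407946, minus strand) was at 495, 489 and 464 in control livers, the tightest control group of the called members, and at 1023, 1411 and 1005 in No-Trp livers. This gave a log2 fold change of 1.27 ± 0.23 (SE, edgeR adjusted p = 0.0196). Slc25a40, its closest relative in the family, had a log2 fold change of 0.40 (adjusted p = 0.224) around a far lower level, 5.14 to 7.82 in the 6 livers.

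Slc25a37 (chr14:69241848-69285112, minus strand) was at 98.0, 189.8 and 138 in control livers and at 53.9, 80.6 and 62.7 in No-Trp livers. Slc25a37 had a log2 fold change of -1.09 ± 0.27 (SE, edgeR adjusted p = 0.0311), and the highest No-Trp liver was below the lowest control liver. Slc25a28, mitoferrin-2, which serves iron import in other cells, had a log2 fold change of -0.05 (adjusted p = 0.823), and Slc25a38, the glycine carrier of heme synthesis, 0.30 (adjusted p = 0.345). Of 9 erythroid markers tested, 7 fell, and the summed level of the list was 378 to 934 in control livers and 119 to 134 in No-Trp livers. Among them were Slc4a1 and Rhag, with log2 fold changes of -5.53 and -5.48, and the heme enzyme Alas2 with -3.65. The globin rows Hba-a1, Hbb-bs and Hbb-bt were listed at 0 in all 12 libraries. The part of these cells in the fall of Slc25a37 was not tested, and in these bulk samples fewer cells of a type and less RNA per cell cannot be told apart.

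Hepatocyte and proliferation markers also differed between the diets in livers. Of 8 hepatocyte markers 4 rose in No-Trp livers, among them Tat by 4.43 and Cyp3a11 by 3.07 on the log2 scale, and no hepatocyte marker was at 0. The summed hepatocyte level was 11232, 38564 and 8281 in control livers 101, 102 and 103. Control liver 102 was thus the highest control for this list, as it was for 11 of the 12 members that rose (not for Slc25a39) and for Slc25a37, which fell. In No-Trp livers the list was highest in liver 107. Slc25a15 and Slc25a22 were highest in liver 105 and Slc25a34 in liver 108, and all other members that rose were highest in liver 107. Of 5 proliferation markers 4 fell, and their sum was 1013 to 1189 in control and 75.9 to 334 in No-Trp livers. The part of either list in the rises of the carriers was not tested.

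Of the 5 carriers with the highest level per length in livers, Slc25a39 and Slc25a47 were called between diets and Slc25a5, Slc25a3 and Slc25a4 were not. Slc25a5 was at 829.8, 788 and 738 in control livers and at 870.0, 1011 and 988 in No-Trp livers, with a log2 fold change of 0.31 (approximate 95% interval -0.09 to 0.70). Slc25a3 was at 806, 739 and 823 and at 754, 714 and 799, with -0.04 (interval -0.42 to 0.34). The groups overlapped for Slc25a3 and not for Slc25a5. Slc25a4 was at 720.3, 476 and 629 in control livers and at 319, 87.6 and 469 in No-Trp livers, with a log2 fold change of -1.04 ± 0.55 (SE, edgeR adjusted p = 0.192). Its groups did not overlap, and No-Trp liver 107 was far below its group. Slc25a33, a pyrimidine nucleotide carrier, and Slc25a51, the NAD carrier, passed the adjusted p but not the fold threshold, which brought the count by adjusted p alone to 15 members (25.3% of all genes). Their log2 fold changes were 0.80 (adjusted p = 0.0326) and 0.46 (adjusted p = 0.0477). Slc25a36, the second pyrimidine nucleotide carrier, had -1.17 (adjusted p = 0.153). Among members without a settled substrate, Slc25a53 had 1.14 (adjusted p = 0.0537) and Slc25a43 had -1.38 (adjusted p = 0.134), and the relatives of the uncoupling proteins Slc25a14 and Slc25a30 had 0.31 and 0.44 (adjusted p = 0.408 and 0.292). Another 6 tested members, among them the S-adenosylmethionine carrier Slc25a26 and the branched-chain amino acid carrier Slc25a44, had log2 fold changes from -0.33 (Slc25a45) to 0.53 (Slc25a32, a folate or FAD carrier), with Slc25a46 at 0.42 and Slc25a27 at 0.03, and none had an adjusted p under 0.109.

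**Figure D3:**
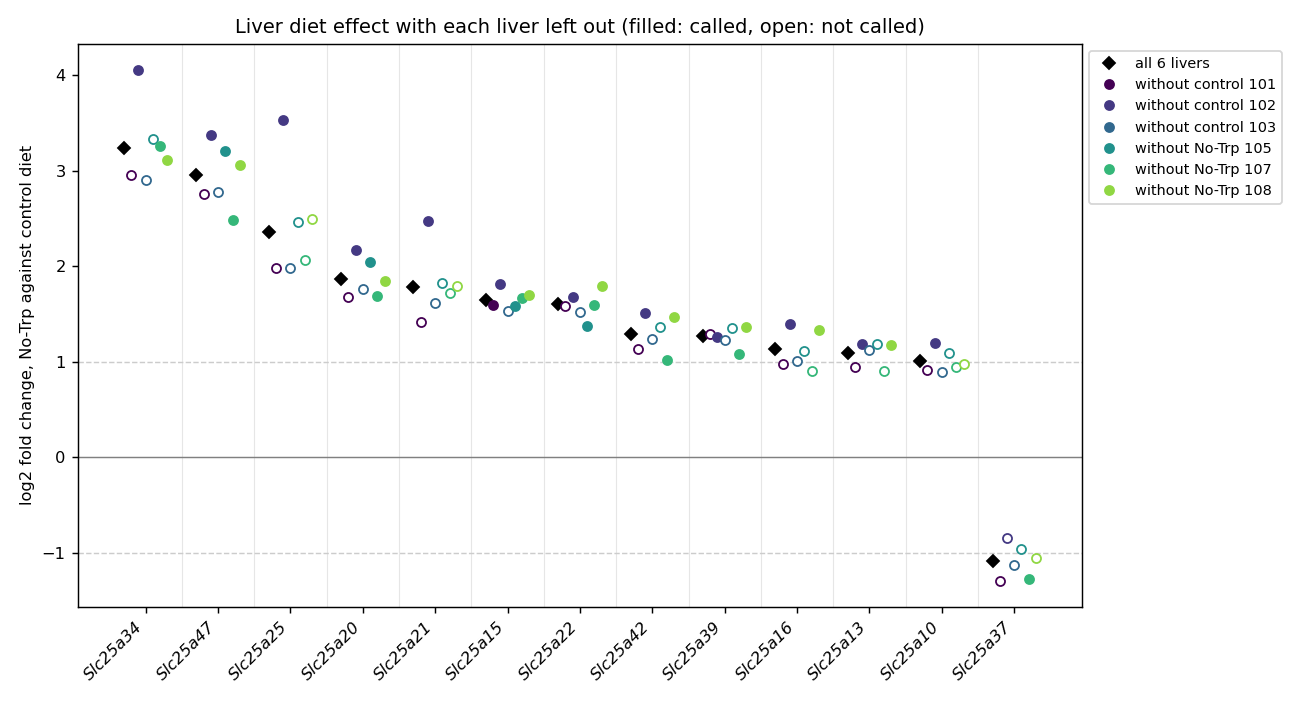
Log2 fold change of the 13 called members between No-Trp and control livers, with all 6 livers (black diamonds) and with each liver left out (circles). Filled marks are called, open marks are not, and dashed lines mark a log2 fold change of 1 in each direction. Every mark stays on its side of 0, while all circles for the fit without control liver 103 are open.

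The second question was whether the same carriers differed between diets in the xenografts. By edgeR 0 of 41 members were called, against 0.36% of all 14704 genes tested, while 8 members reached an unadjusted p under 0.05, as did 16.9% of all genes. The median log2 fold change of the members was 0.04, with 21 members above 0 and 20 below. The groups of 3 did not overlap for 11 members, all higher on the No-Trp diet, and 22.4% of all genes had groups that did not overlap (11.2% higher). The summed level of the members was 2741 to 3296 in control and 2833 to 3311 in No-Trp xenografts.

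The 8 of 41 members with an unadjusted p under 0.05 were near the share of all genes (16.9%). With their log2 fold changes they were Slc25a35 (2.78), Slc25a48 (1.31), Slc25a42 (0.78), Slc25a30 (0.63), Slc25a13 (0.52), Slc25a12 (0.51), Slc25a16 (0.50) and Slc25a5 (0.44). Except for Slc25a35 their adjusted p lay between 0.202 and 0.296. Slc25a42 was at 6.06, 4.72 and 4.43 in control xenografts and at 8.09, 8.68 and 9.73 in No-Trp xenografts. Slc25a13 was at 36.6, 44.5 and 37.3 and at 51.8, 73.2 and 47.4, and the groups overlapped for neither gene. Slc25a16 was at 13.1, 12.3 and 18.5 and at 22, 22.8 and 18.2, with overlap. These 3 members had risen in livers, and none of them was called in xenografts. Slc25a5 was at 349, 285 and 261 and at 378, 429 and 422, without overlap. Of the other abundant carriers, Slc25a3 was at 612, 599 and 674 and at 522, 610.2 and 512, Slc25a4 at 666, 492 and 509 and at 484, 566 and 759, and Slc25a1 at 178, 136 and 130.3 and at 109.7, 133 and 106. The groups overlapped for these 3 genes. Slc25a48, whose substrate is less certain, had almost the same fitted value in livers, 1.32 ± 0.58 (SE, edgeR adjusted p = 0.127).

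Slc25a35 (chr11:68968131-68974365, plus strand), also without a settled substrate, was at 0.293, 0.240 and 0.303 in control xenografts 40, 41 and 43 and at 2.49, 1.69 and 1.73 in No-Trp xenografts 35, 36 and 37. These levels came from 5 or 6 reads per control library and from 41 to 68 reads per No-Trp library. With control counts near the floor, it entered the fit through the No-Trp xenografts, the group in which it was higher. The log2 fold change was 2.78 ± 0.48 (SE, edgeR adjusted p = 0.0506), and DESeq2 called it with an adjusted p of 0.000778. Leaving out each xenograft in turn gave an edgeR adjusted p from 0.0901 to 0.159. A term for the mark of resubmission, or leaving out marked libraries, sets the No-Trp xenografts against control xenograft 40 alone. The rise kept its direction there, and no p is drawn from those fits. In livers Slc25a35 was at 1.15, 1.13 and 0.240 on the control diet and at 0.685, 1.10 and 0.539 on the No-Trp diet. Its exons overlap those of Rangrf on the opposite strand over 820 bases. In the same tumors the summed level of 8 adipocyte markers was 14.3 to 70.1 on the control diet and 416 to 865 on the No-Trp diet, with 4 of 7 tested markers called higher. That of 8 muscle markers was 2.20 to 21.7 and 35.6 to 69.3, with 0 of 8 called and 7 at an unadjusted edgeR p under 0.05. The part of these cells in the value of Slc25a35 was not tested. Among the adipocyte markers only Ucp1 was at 0 in the control xenografts.

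**Figure D4:**
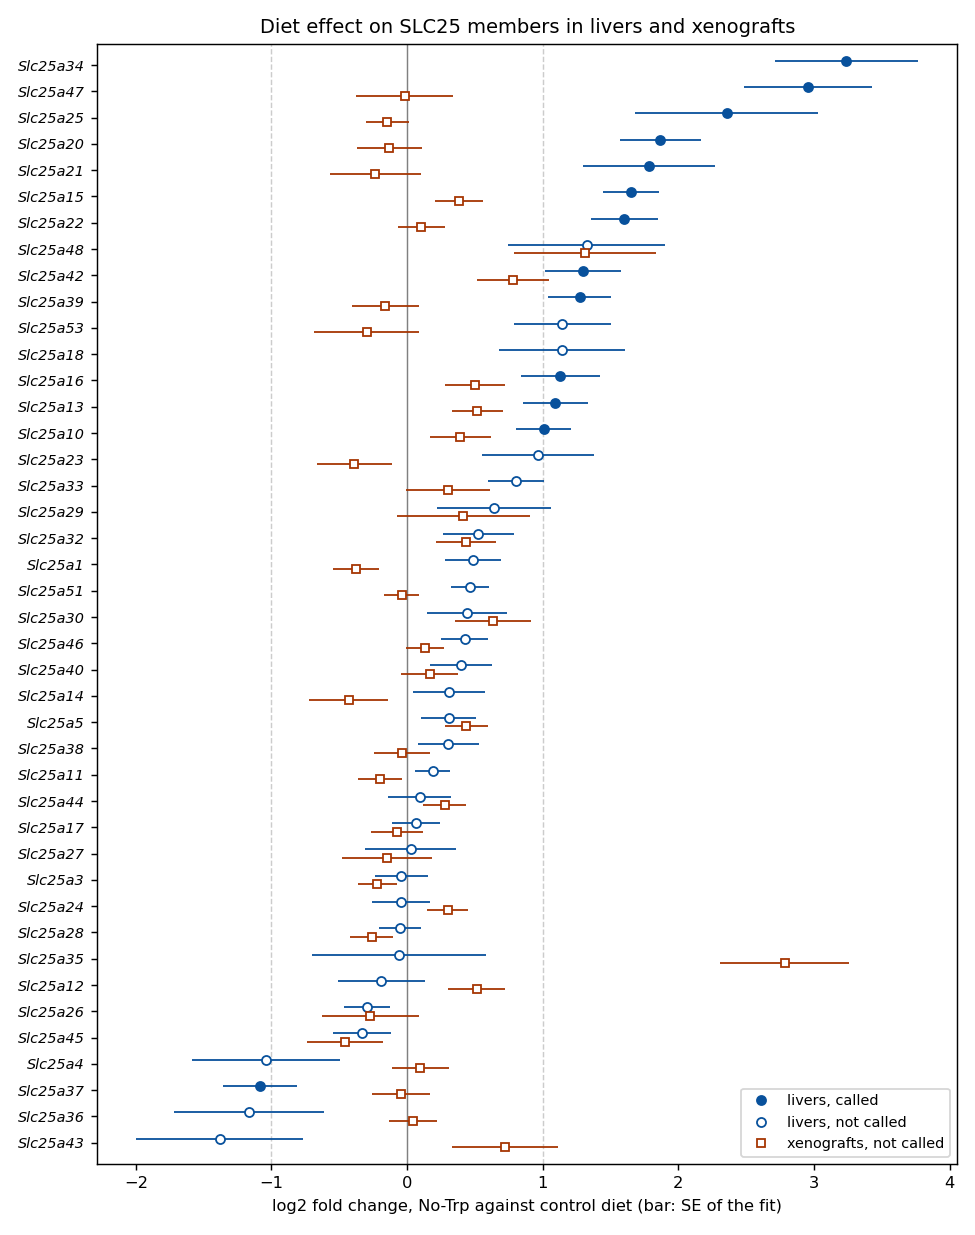
Log2 fold change between No-Trp and control diet for the SLC25 members tested, 1 of them not drawn, ordered by the value in livers. Blue circles are MYC-ON livers (filled where called), open brown squares are xenografts, bars are standard errors and dashed lines mark a log2 fold change of 1 in each direction. Xenograft values lie near 0 for most members that were called in livers, and Slc25a35 stands apart at 2.78.

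The difference of the diet effect between the models was tested in a fit of all 12 libraries. Of 43 members, 8 were called, against 12.7% of all 15472 genes tested (6.7% higher and 6.01% lower). The diet effect was lower in xenografts than in livers for 7 of them and higher for Slc25a35. The median difference of the members was -0.26 and that of all genes 0.03. The count ran from 5 to 10 members when each library was left out in turn. Library totals moved the share of higher calls over all genes from 52.7% to 80.7%, the median difference of all genes to 0.41 and that of the members to 0.13, with 7 members called.

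The levels of these 7 members in xenografts were as follows. Slc25a47 was at 13.5, 5.12 and 9.83 in control xenografts and at 11.1, 9.90 and 7.61 in No-Trp xenografts, a log2 fold change of -0.02 (approximate 95% interval -0.71 to 0.68) that differed from the one in livers by -2.94 ± 0.60 (SE, edgeR adjusted p = 0.0122). Slc25a25 was at 26.6, 29.3 and 28.6 and at 22.9, 28.7 and 26, and the difference from livers was -2.46 ± 0.73 (SE, edgeR adjusted p = 0.0419). Slc25a20 was at 22, 14.9 and 19.1 and at 20.2, 13 and 18.7, with a difference of -1.97 ± 0.39 (SE, edgeR adjusted p = 0.011). The xenograft groups overlapped for these 3 genes, and the levels of Slc25a47 and Slc25a20 were below every control liver.

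Slc25a15 was at 20.1, 17 and 16.1 in control and at 21.7, 23.9 and 24.8 in No-Trp xenografts, without overlap, and the diet effect differed by -1.24 ± 0.23 (SE, edgeR adjusted p = 0.00992). Slc25a22 was at 29.8, 25.6 and 27.9 and at 27.1, 36.3 and 27.6, with a difference of -1.47 ± 0.29 (SE, edgeR adjusted p = 0.0109). Slc25a39 was at 291, 172 and 196 and at 161, 260.4 and 178, with a difference of -1.40 ± 0.34 (SE, edgeR adjusted p = 0.0209). Slc25a34 was at 1.27, 0.320 and 0.364 and at 0.549, 0.203 and 0.211, with a difference of -4.23 ± 0.93 (SE, edgeR adjusted p = 0.0154). Slc25a34 did not pass the low-count filter in the xenografts alone and entered this fit through the livers. Its difference thus sets a rise in livers against xenograft levels near the floor. The difference was not called for the other members called in livers. It was -0.55 for Slc25a13 (approximate 95% interval -1.13 to 0.04), -0.49 for Slc25a42 (interval -1.16 to 0.18), -0.60 for Slc25a16 (interval -1.32 to 0.13) and -0.58 for Slc25a10 (interval -1.22 to 0.05). Slc25a10 was at 108, 61 and 80.9 in control and at 116, 129 and 88.4 in No-Trp xenografts, with overlap. Slc25a21 was at 17, 7.35 and 10.1 and at 11.3, 11 and 7.53, and Slc25a37 at 106, 118 and 119.9 and at 76.7, 130 and 132, also with overlap. For Slc25a21 the difference was -1.99 ± 0.63 (SE, edgeR adjusted p = 0.0526) and for Slc25a37 1.07 ± 0.37 (SE, edgeR adjusted p = 0.0668).

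The third comparison set the xenografts against the livers on each diet. These models differ together in site, host strain, cell of origin and oncogenes, and may differ in sex, which the labels do not give for the xenografts. These differences cannot be told apart. On the control diet 22 of 43 members were called, 4 higher and 18 lower in xenografts, against 43.5% of all 15472 genes (23.3% higher and 20.2% lower). For the No-Trp mice 22 were called, 2 higher and 20 lower, against 43.7% of all genes (24.5% higher and 19.1% lower). By the adjusted p alone 6 members had higher levels in xenografts for the No-Trp mice, where 33.2% of all genes did. The medians of the members were -0.82 and -0.88, those of all genes 0.01 and 0.15. With library totals the No-Trp counts became 9 higher and 12 lower, so that split rested on the scaling, and the median of all genes moved to 0.68 and that of the members to -0.31.

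The largest higher level was that of Slc25a24 (chr3:109123149-109168457, plus strand), another calcium-regulated ATP-Mg/phosphate carrier. It was at 6.92, 7.66 and 7.97 in control livers, at 7.02, 7.17 and 7.32 in No-Trp livers, at 137, 151 and 165 in control xenografts and at 170.0, 191 and 206 in No-Trp xenografts. The log2 fold change between models was 4.33 ± 0.15 on the control diet (SE, edgeR adjusted p = 4.7e-09) and 4.70 ± 0.15 on the No-Trp diet (adjusted p = 3.54e-09). Slc25a21 was 1.79 ± 0.46 higher in xenografts on the control diet (adjusted p = 0.00508) and -0.19 ± 0.44 on the No-Trp diet (adjusted p = 0.726). Slc25a14, related to the uncoupling proteins, was at 3.03, 4.22 and 4.16 in control livers and at 12, 8.15 and 6.37 in control xenografts, 1.22 ± 0.28 higher on the log2 scale (adjusted p = 0.00269). Slc25a53 was at 0.865, 0.901 and 0.721 and at 1.81, 1.68 and 2.06, 1.16 ± 0.36 higher (adjusted p = 0.0154). On the No-Trp diet the second member called higher was Slc25a36, by 1.72. It was at 10.5, 2.63 and 12.6 in No-Trp livers and at 26.2, 27.8 and 31.9 in No-Trp xenografts.

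The 5 largest lower levels in control xenografts were those of Slc25a47, Slc25a42, Slc25a15, Slc25a13 and Slc25a43. Their log2 fold changes against control livers were -4.48 ± 0.48, -3.77 ± 0.27, -3.35 ± 0.18, -2.50 ± 0.22 and -2.42 ± 0.55 (SE, n = 3 and 3), with edgeR adjusted p from 3.63e-08 to 0.0024. The first 4 were also among the members that rose in No-Trp livers, and on that diet their values were -7.42, -4.26, -4.59 and -3.04. The other 13 members called lower on the control diet had log2 fold changes from -2.19 (Slc25a22) to -1.04 (Slc25a27). Slc25a5, the most abundant carrier of livers, was among them at -1.40 ± 0.16 (SE, edgeR adjusted p = 1.43e-05). Both comparisons use the same liver libraries as the diet comparison. Slc25a43, an X-linked member without a settled substrate, was at 6.92, 10.6 and 8.45 in control livers and at 1.91, 1.80 and 1.09 in control xenografts. Its value on the No-Trp diet was -0.30 ± 0.53 (edgeR adjusted p = 0.646), and it turned to 0.54 without No-Trp liver 108.

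Promoter windows of 250 bases before the transcript start were available from RefSeq (GRCm38.p6) for 36 of the 47 members, and exact matches to short motifs on both strands were counted. The E-box CACGTG, the motif to which MYC with its partner MAX is known to bind, was in a window of 7 of 36 members (19.4%), against 6.86% of 27025 genes. The 7 were Slc25a1, Slc25a13, Slc25a14, Slc25a15, Slc25a31, Slc25a33 and Slc25a36, of which Slc25a13 and Slc25a15 rose in No-Trp livers. The cyclic AMP response element TGACGTCA was in a window of Slc25a25 and Slc25a36 (5.56%, against 1.77% of genes). The Sp1 box GGGCGG was in 69.4% of the members, against 35.4% of genes, and CCAAT in 50%, against 37.5%. No member window held the HNF4 core CAAAGTCCA, the NRF1 core motif or the DR1 direct repeat of nuclear receptors, which were in 0.451%, 0.877% and 0.0407% of genes. A match is a string of letters and not a binding site.

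The windows of 3 members that rose in No-Trp livers are shown because Slc25a25 and Slc25a13 hold the cyclic AMP element and the E-box and Slc25a47 holds neither, with the element in capitals and all on mm10 coordinates. They are Slc25a25 at chr2:32424067-32424316 (minus strand, an internal start of the gene, with the element starting 150 bases before it), Slc25a13 at chr6:6217174-6217423 (minus strand, with the E-box starting 125 bases before the start) and Slc25a47 at chr12:108850879-108851128 (plus strand).
Slc25a25: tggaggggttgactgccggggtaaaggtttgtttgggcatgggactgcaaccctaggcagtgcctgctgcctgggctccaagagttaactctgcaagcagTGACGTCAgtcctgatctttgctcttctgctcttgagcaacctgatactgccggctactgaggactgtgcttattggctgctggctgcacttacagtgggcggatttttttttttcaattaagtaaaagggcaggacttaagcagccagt
Slc25a13: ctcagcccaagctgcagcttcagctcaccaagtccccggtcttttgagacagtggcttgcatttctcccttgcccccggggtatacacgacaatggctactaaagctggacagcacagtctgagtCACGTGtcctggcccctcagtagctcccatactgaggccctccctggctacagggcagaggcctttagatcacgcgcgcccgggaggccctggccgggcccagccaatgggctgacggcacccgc
Slc25a47: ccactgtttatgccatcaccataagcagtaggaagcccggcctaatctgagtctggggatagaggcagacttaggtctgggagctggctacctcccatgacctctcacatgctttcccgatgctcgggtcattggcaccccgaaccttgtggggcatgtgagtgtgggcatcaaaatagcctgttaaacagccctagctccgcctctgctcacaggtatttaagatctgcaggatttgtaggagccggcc
The Slc25a47 window lies inside the gene's GENCODE span, which begins further upstream. None of these windows overlaps an annotated exon.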

How the data were processed

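The 12 files held whole-number read counts per gene, 1 file per mouse, as deposited. Per the labels and the study's methods, the authors trimmed polyA RNA-seq reads with Trim Galore, aligned them to mm10 with STAR 2.7.2b, sorted them with SAMtools 1.9 and counted reads per gene with HTSeq. The strand and overlap settings of the counting are not given in the sources used here. Each file also holds 5 rows of reads not assigned to a gene, which entered neither library sizes nor tests. Since reads that overlap 2 genes can be dropped or shared according to those settings, members that overlap a gene on the opposite strand are named as such.

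The counts were tested with edgeR 4.0.16 in R 4.3.3, with TMM composition factors, filterByExpr and the quasi-likelihood test, and p-values were adjusted by Benjamini-Hochberg over all genes tested. Standard errors were derived from each log2 fold change and its F statistic, and approximate 95% intervals use normal quantiles of that error. Livers and xenografts were fitted separately for the diet comparisons and together for the others. A call needed an adjusted p no higher than 0.05 together with a log2 change of 1 or more in size. Levels per length used merged exons of protein-coding transcripts in GENCODE M21. The biological coefficient of variation was 31.6% in livers and 28.7% in xenografts. Replicates were separate mice, and every pair of libraries of a group differed by more than sampling noise (chi-square per degree of freedom 34.6 to 274), so all 12 were kept. With 3 mice a group an exact permutation test cannot go below 0.1, so single genes were tested in the model only. The scripts were tested on simulated data.

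The members, the partner and marker lists and the tests were chosen with earlier results of these data known. Named in every library are members called in a diet comparison or in the difference between models, with the 5 highest levels per length of each model, and, for the comparison of models, up to 5 called members in each direction are named on the control diet. Other genes are named from the lists, with values where their adjusted p was at most 0.05, and a few without values to say which genes a list holds or which were at 0. Members not called are named where their group, level or unadjusted p is described, chosen after their values were seen. Alternatives were DESeq2 1.42.0, other scalings and filters, a term for the mark of resubmission, a fit without Rn45s, 1 fit over all libraries and leaving out each mouse. A few genes counted in the lists and among the members are not reported here by name.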

Additional observations from a re-analysis of the deposited data

Results flagged for a closer look

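The diet effect differed between xenografts and livers, by edgeR's test of the difference itself, for 8 of 43 SLC25 members tested. Of all 15472 genes tested 12.7% were called in the same way. In each case the value is the log2 fold change between diets in xenografts minus that in livers. It was -4.23 for Slc25a34, -2.94 for Slc25a47, -2.46 for Slc25a25, -1.97 for Slc25a20, -1.47 for Slc25a22, -1.40 for Slc25a39 and -1.24 for Slc25a15. It was 2.88 ± 0.82 for Slc25a35 (SE, edgeR adjusted p = 0.0358). Slc25a34 did not pass the low-count filter in the xenografts alone, where its levels were near the floor. Slc25a35 had only 5 or 6 reads in each control xenograft. Slc25a15, Slc25a20, Slc25a22, Slc25a34 and Slc25a47 kept their call in each of the 12 fits that left out a library, with adjusted p of at most 0.0429. Slc25a39 lost it in 2 of these fits, and Slc25a25 and Slc25a35 in 10 each.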

How the results depend on the processing

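No paired analysis was possible because the labels number each mouse once and no 2 groups share a number. Counts below are SLC25 members called. In livers (12 higher, 1 lower) library totals gave 5 higher, only livers without the mark of resubmission gave 0 and 0 (an alternative chosen after seeing the data), and leaving out a mouse gave 0 to 13 higher and 0 to 1 lower. In xenografts (0 and 0) DESeq2, RLE factors, library totals, no filter and leaving out Rn45s each called 1 higher, Slc25a35, and leaving out a mouse gave 0. For the difference between models (1 higher, 7 lower) DESeq2 and library totals gave 2 higher. A minimum of 10 counts in every library gave 0 higher because Slc25a35 was then not tested, and neither was Slc25a34. Leaving out a mouse gave 0 to 2 higher and 5 to 10 lower. Xenografts against livers on the control diet (4 higher, 18 lower) gave 3 to 4 and 15 to 20 without a mouse. On the No-Trp diet (2 higher, 20 lower) library totals gave 9 and 12, no fold threshold gave 6 higher, and leaving out a mouse gave 2 to 3 and 19 to 21. Among the genes recomputed under each alternative, directions turned in this comparison: with library totals Slc25a21 was at 0.36, Slc25a53 at 0.27 and Slc25a43 at 0.16, and without a mouse Slc25a43 ran from -0.78 to 0.54, the latter without No-Trp liver 108. Library totals also moved the median difference of the members between models from -0.26 to 0.13 and that of all genes from 0.03 to 0.41. Of 240 alternative values for 15 liver members 77 lost significance, 52 of them without a mouse, and 0 reversed. Except where the construction shows it, the cause was not tested. Depth limits members with few reads, such as Slc25a35 with 5 or 6 reads in each control xenograft.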

Other observations

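The machinery that inserts carriers into the inner membrane held 1 called gene in No-Trp livers of 12 tested (8.33%, against 16.5% of all genes). It was Agk, a subunit of the carrier translocase, which fell by 1.08 on the log2 scale, and the receptor subunit Tomm22 had -0.78 (adjusted p = 0.0493). The fitted value was below 0 for 11 of the 12, with a median of -0.46. Of the 3 outer membrane channels Vdac1, Vdac2 and Vdac3, 0 were called by edgeR and 1 had an unadjusted p under 0.05. Of 7 inner membrane carriers of other families 1 was called, the pyruvate carrier subunit Mpc1, which rose by 1.89. Of the SLC25 relatives with other names 3 were tested (Ucp2, Mtch1 and Mtch2) and 0 were called by edgeR, with 1 at an unadjusted p under 0.05.

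Among 9 regulators of mitochondrial genes Ppara and Ppargc1a rose by 2.25 and 1.54 in No-Trp livers, while Nrf1 and Tfam had -0.71 and -0.62 (adjusted p = 0.0242 and 0.0361), under the fold threshold. Of 10 genes of mitochondrial iron and heme use 1 was called, Alas2, which fell. The fitted value was above 0 for 6 of the 10 and below 0 for 4, from -3.65 to 3.04 on the log2 scale. Of 6 folate, thiamine and NAD enzymes 1 was called, Mthfd1l, which fell by 1.40. In xenografts 0 genes of these lists and of the urea cycle, carnitine, glutamate, malate-aspartate and citrate lists were called by edgeR, with 0 to 4 genes of a list at an unadjusted p under 0.05. Of the other cell type markers, 0 of 6 macrophage, 0 of 5 lymphocyte, 0 of 4 neutrophil, 0 of 6 endothelial, 0 of 5 cholangiocyte and 0 of 8 muscle markers were called by edgeR in livers (2 macrophage and 2 endothelial markers and 0 of the others had an unadjusted p under 0.05), and 1 of 6 stellate and fibroblast markers, Dcn, rose by 1.91. Of the adipocyte markers in livers Cidec rose by 3.02 and Fabp4 fell by 1.05.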
